A study of Homo sapiens with 6 samples.

Results

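The genes described here lie in a run of chromosome 10 that reaches from RPP38-DT to ZNF33B, from the short arm across the centromere into the start of the long arm. The run was picked out because its genes had lower array signals in CAsE-PE than in RWPE-1, so the differences between both lines given below are the values that chose it, and they are descriptions with no test. Of 18417 genes measured with a feature of 1 symbol, 86 lie in the run, and 42 of them make up the set: 30 were below a mean log2 level of 6 over the 6 arrays and 14 were left out by name (zinc finger genes, VIM, ZEB1, ITGA8, ITGB1, DNAJC1, FZD8 and PARD3). The set holds 37 protein-coding genes, 4 long non-coding RNA genes and 1 transcribed pseudogene.

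CAsE-PE is a malignant line derived from RWPE-1 by continuous growth in 5 µM sodium arsenite, and it was sampled after 30, 33.5 and 35 weeks of exposure (3 arrays). RWPE-1, a prostate epithelial line immortalised with human papillomavirus 18, was sampled untreated at passages 18, 38 and 42 (3 arrays). All arrays share a keratinocyte medium with pituitary extract and epidermal growth factor, the total RNA preparation and the biotin label, and both groups are samples of the same cell lineage along time in culture, with no statement in the labels that they were separate cultures. The p-values given for other genes therefore measure the spread between these arrays, which may be technical, and in such bulk RNA fewer cells of a type and less RNA per cell cannot be told apart. No untreated culture kept for the same number of weeks is among the labels, so exposure and time in culture cannot be told apart either.

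Neighbouring genes on a chromosome usually have no function in common, and each is read from its own promoter by the factors its cell type supplies. Members can therefore be set against the run's median difference, called the common shift here: they may follow it, exceed it or escape it. In this run lie housekeeping genes such as the kinesin heavy chain gene KIF5B, the mitochondrial protease gene YME1L1 and the ubiquitin ligase scaffold gene CUL2, next to tissue-restricted genes such as the pancreatic transcription factor gene PTF1A.

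Array medians lay between 91.7 and 97.2 intensity units, and no detection call accompanied the values, so low signals cannot be told from background. The epithelial keratin genes KRT5, KRT8 and KRT18 had levels between 10.38 and 12.10 on the log2(intensity + 1) scale on all arrays. KRT14, a basal keratin gene, lay at 8.72 to 10.18 in CAsE-PE and 10.81 to 11.12 in RWPE-1. The E-cadherin gene CDH1 rose by 0.39 (limma adjusted p = 0.0186). Of the leukocyte markers PTPRC, CD3E and CD68, CD68, which epithelial lines can also express, fell by 0.89 (limma adjusted p = 0.00516), and PTPRC lay at 3.73 to 3.86 in CAsE-PE and 3.84 to 3.99 in RWPE-1. The endothelial markers had differences of 0.20 (PECAM1), −0.15 (CDH5) and −0.22 (VWF), none past the threshold. Among the fibroblast markers, PDGFRB fell by 0.32 (limma adjusted p = 0.0479), and COL1A1 (0.10), COL3A1 (−0.25) and DCN (0.52) did not pass. The luminal gene KLK3 lay at 5.85 to 5.97 in CAsE-PE and 6.03 to 6.27 in RWPE-1. The part of other cells in the results was not tested.

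Start regions of 5 members are shown to set genes that escaped, exceeded and followed the common shift side by side: NEBL had the highest difference, SVIL a mean difference near 0, MPP7 and PLXDC2 the deepest differences, and RPP38 one near the median, with a start region that overlaps that of RPP38-DT on the other strand. Each is the 300 bases from 250 before to 50 after a RefSeq start of the gene (assembly GRCh38.p14). All are written 5′ to 3′ on the gene's strand with CG dinucleotides in capitals. The positions are chr10:21174882-21175181 (minus strand) for NEBL, chr10:29736887-29737186 (minus) for SVIL, chr10:28303015-28303314 (minus) for MPP7, chr10:19816182-19816481 (plus) for PLXDC2 and chr10:15097105-15097404 (plus) for RPP38.
NEBL: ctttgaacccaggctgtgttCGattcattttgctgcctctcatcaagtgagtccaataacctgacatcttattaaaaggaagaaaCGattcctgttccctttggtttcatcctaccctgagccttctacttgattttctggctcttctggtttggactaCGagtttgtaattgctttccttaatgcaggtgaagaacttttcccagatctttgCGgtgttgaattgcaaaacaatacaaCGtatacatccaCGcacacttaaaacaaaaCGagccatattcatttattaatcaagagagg
SVIL: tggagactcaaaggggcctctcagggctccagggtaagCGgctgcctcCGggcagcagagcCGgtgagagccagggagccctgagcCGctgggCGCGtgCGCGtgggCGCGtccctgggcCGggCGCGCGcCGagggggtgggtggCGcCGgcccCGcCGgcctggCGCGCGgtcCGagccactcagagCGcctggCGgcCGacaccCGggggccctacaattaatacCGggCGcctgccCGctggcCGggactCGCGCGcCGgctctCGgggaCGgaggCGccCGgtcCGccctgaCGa
MPP7: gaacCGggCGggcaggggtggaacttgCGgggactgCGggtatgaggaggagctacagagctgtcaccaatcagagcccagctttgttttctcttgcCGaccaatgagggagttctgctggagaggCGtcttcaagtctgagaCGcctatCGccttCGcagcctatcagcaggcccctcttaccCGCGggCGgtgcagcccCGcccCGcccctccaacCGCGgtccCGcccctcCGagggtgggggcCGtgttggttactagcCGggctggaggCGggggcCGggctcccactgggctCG
PLXDC2: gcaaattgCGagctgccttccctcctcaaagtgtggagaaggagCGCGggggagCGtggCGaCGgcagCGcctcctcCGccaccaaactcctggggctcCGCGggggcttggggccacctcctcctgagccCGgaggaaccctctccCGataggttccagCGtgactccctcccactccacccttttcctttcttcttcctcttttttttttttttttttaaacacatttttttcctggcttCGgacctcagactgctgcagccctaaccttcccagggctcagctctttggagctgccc
RPP38: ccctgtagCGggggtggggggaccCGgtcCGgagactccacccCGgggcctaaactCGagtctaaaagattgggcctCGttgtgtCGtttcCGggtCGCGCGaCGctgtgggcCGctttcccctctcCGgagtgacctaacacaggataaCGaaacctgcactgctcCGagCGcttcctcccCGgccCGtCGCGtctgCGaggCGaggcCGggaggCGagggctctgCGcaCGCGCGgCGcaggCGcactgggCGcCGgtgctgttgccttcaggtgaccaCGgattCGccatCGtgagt

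These windows differ in CG content, with 7 CG dinucleotides in NEBL, 41 in SVIL, 23 in MPP7, 14 in PLXDC2 and 36 in RPP38. Among the 37 members with a RefSeq start region the median was 27 CG dinucleotides (range 4 to 54), against 14 over 27305 start regions of all genes. Of the 7 escaping genes, 4 had a RefSeq start region: NEBL and C1QL3 with 7 CG dinucleotides each, SKIDA1 with 13 and SVIL with 41. Their median was 10, beside 29 for 28 members that followed the shift and 23 for 5 deeper ones. These medians were not tested. The antioxidant response element TGACNNNGC, the sequence bound by the stress factor NRF2, searched on both strands, occurred in 2 of the 37 (SKIDA1 and OTUD1), 5.41%, and in 13.6% of all start regions. The TATA box motif TATAAA was found in C1QL3 and LINC00839, 5.41%, against 11.95% of all, and CCAAT, on either strand, in 8 members, 21.6%, against 35.7%. For the other 2 motifs searched, on both strands, the share was larger in members: the NRF1 motif in 3, 8.11%, against 1.36%, and the cAMP response element TGACGTCA in 2, 5.41%, against 1.98%. With such small counts and sets unlike in level, neither excess nor lack is read from the motif shares. A match is a match of letters only, and a gene with several start sites is shown with 1 of them. Among the 5 windows shown, those of NEBL and MPP7 lie inside the gene, whose RefSeq limits reach to 21293050 and 28335203. Other start sites of these 2 genes were not counted, so the low count of NEBL holds for this site only.

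Across the 42 members the median difference, CAsE-PE minus RWPE-1, was −0.57 on the log2 scale, with the middle of the distribution between −0.88 and −0.16 (quartiles) and the extremes at −2.21 and 0.94. The 13139 genes of the whole array at the same level minimum had a median of −0.02 and quartiles of −0.20 and 0.22. Of the members 37 had a difference below 0, which is 88.1% beside 53.0% of genes at or above the minimum and 59.5% of all genes. All 3 CAsE-PE arrays lay below all 3 RWPE-1 arrays for 29 members, where 22.8% of all genes did, and above them for 2, where 16.1% did. In the limma fit over all genes, 26 members passed an adjusted p of 0.05 as lower (8.71% of all genes) and 2 as higher (9.04% of all genes). The run was selected on this contrast, so nothing is read from these shares. One of the 2 higher calls was lost without the passage 38 array.

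**Figure D1:**
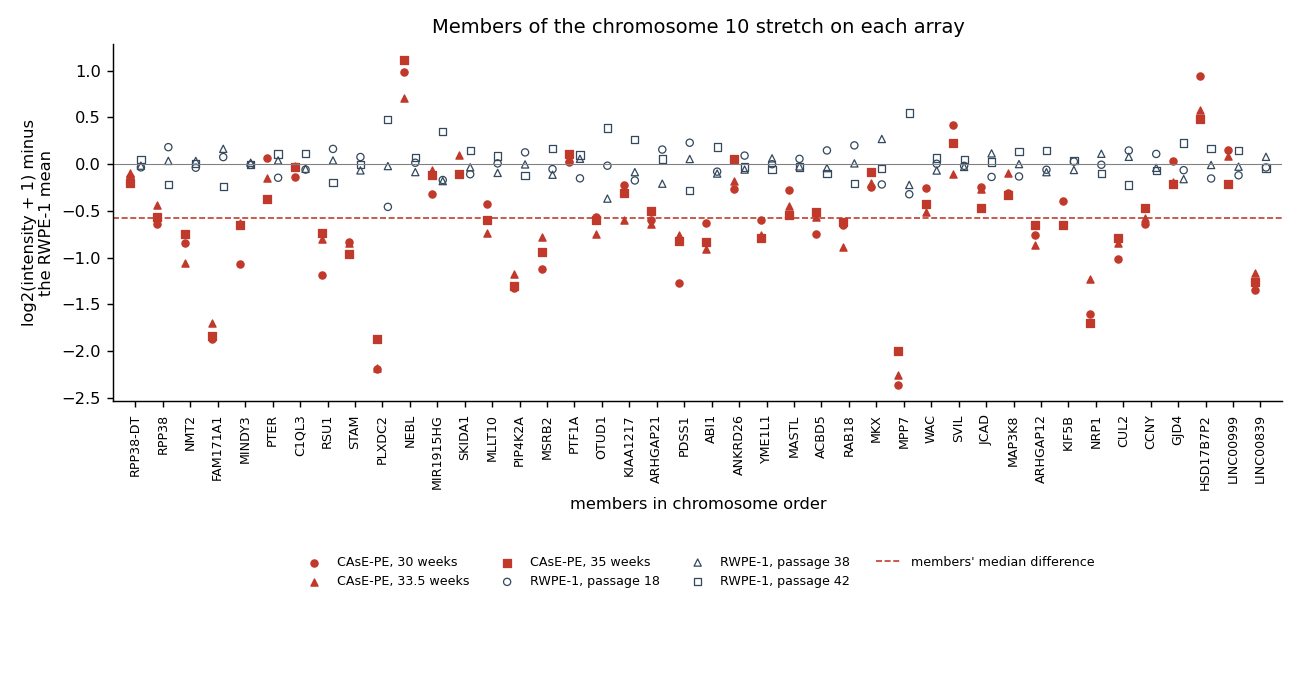
Each of the 42 members in chromosome order, with log2(intensity + 1) minus the gene's RWPE-1 mean on the vertical axis. Filled red symbols are the 3 CAsE-PE arrays, open symbols the 3 RWPE-1 arrays, and the dashed line is the members' median difference of −0.57. NEBL and HSD17B7P2 have all their CAsE-PE arrays above all their RWPE-1 arrays.

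The common shift had nearly the same size at each exposure time. Relative to each gene's RWPE-1 mean, the median member stood at −0.58 at 30 weeks, −0.61 at 33.5 weeks and −0.55 at 35 weeks, and at −0.02, −0.03 and 0.05 at passages 18, 38 and 42. At 30 weeks 35 members were below their RWPE-1 mean, and 37 were at each later time.

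Whether members drifted within a line is a question the choice of the run did not use. None of the 42 members had a passage trend within RWPE-1 past an adjusted p of 0.05 in limma, where 0.0217% of all genes did, and 2 had an unadjusted p under 0.05, where 5.82% of all genes did. These were the 2 deepest genes, MPP7 and PLXDC2, both of which were brightest at passage 42, and both adjusted p-values were above the threshold. No member had a week trend within CAsE-PE past the same threshold (0.25% of all genes did), and 5 had an unadjusted p under 0.05 (11.3% of all genes). With 2 residual degrees of freedom this model leaves small drifts undetectable.

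Genes at the edges show that the lowered run did not begin at RPP38-DT. The 10 nearest genes before it with a level of 6 or more had a median difference of −0.43. All CAsE-PE arrays lay below all RWPE-1 arrays for 6 of these 10, where 21.7% of all genes at that level did. Among these, HSPA14, a ribosome-associated chaperone gene, differed by −0.90 (SE 0.15), the selenophosphate synthetase gene SEPHS1 by −0.78 (SE 0.14), the splicing factor gene PRPF18 by −0.77 (SE 0.10) and the H3K9 methyltransferase gene SUV39H2 by −0.69 (SE 0.13). PHYH, the peroxisomal phytanoyl-CoA hydroxylase gene, was the only one of the 10 with a difference above 0, at 0.23 (SE 0.13).

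At the other end the common shift was not kept: genes of both directions were mixed, without a sharp edge. The 38 members up to CCNY had a median of −0.58, and the 4 members after it ranged from −1.26 to 0.66 with a median of −0.06, a division chosen with these values known. FZD8, a Wnt receptor gene left out by name, lies just after GJD4 and differed by −0.57 (SE 0.15). Of the 6 zinc finger genes beyond it, ZNF248, ZNF33A and ZNF33B had all CAsE-PE arrays above all RWPE-1 arrays (0.78, 0.35 and 0.99), ZNF25 had all of them below (−0.48), and ZNF37A (−0.05) and ZNF37BP (−0.20) overlapped. The dim genes LOC441666 (−0.72, SE 0.11) and CCNYL2 (−0.47, SE 0.15), in the same stretch, were below on all arrays. The next 10 genes after ZNF33B at the level minimum had a median of −0.16, and 3 of them were below on all arrays. That share is near the 21.7% of all genes at the minimum and the 38.9% of those on chromosome 10 after the run.

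**Figure D2:**
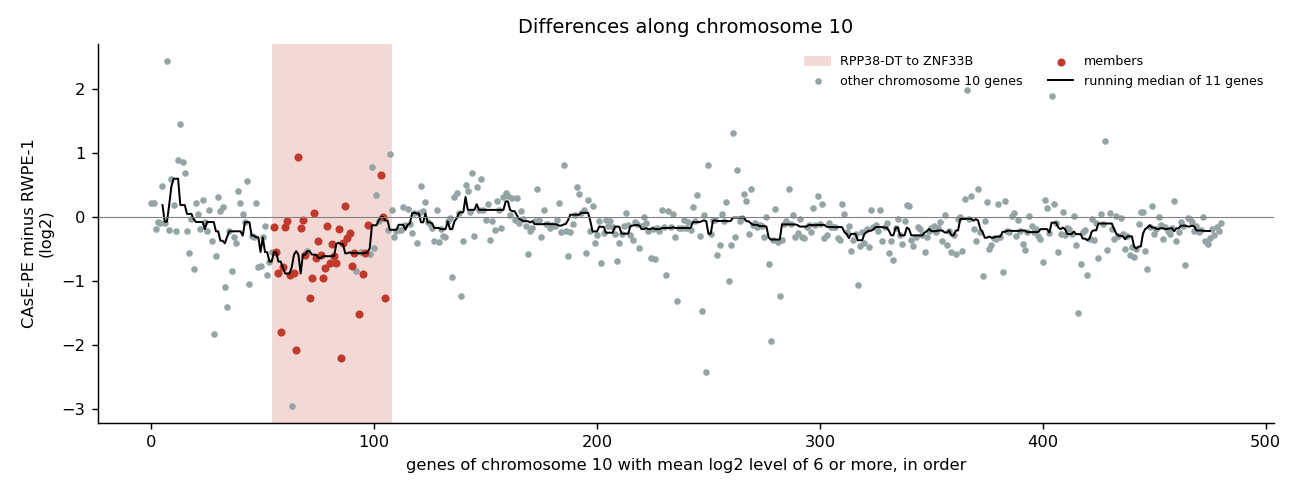
Difference CAsE-PE minus RWPE-1 (log2, vertical axis) for genes of chromosome 10 with a mean level of 6 or more, in chromosome order (horizontal axis). Red points are the members, the shaded band is the run from RPP38-DT to ZNF33B with unshaded neighbours on both sides, and the black line is the running median of 11 genes, which is low through most of the band and near 0 at its right edge.

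The rest of chromosome 10 did not stand at the same value: 55 genes before the run had a median of −0.09 and 373 genes after it had a median of −0.16. Among other lowered stretches, the genes at the level minimum had medians of −0.50 on chromosome 20 (C20orf96 to NAPB, 104 genes), −0.58 on chromosome 12 (SLC2A3 to MED21, 53 genes) and −0.59 on chromosome 1 (C1orf74 to LBR, 54 genes). The members here were more spread, with an SD over genes of 0.63 against 0.41, 0.43 and 0.53 in those 3 stretches. For the 38 members up to CCNY the SD was 0.60. Genes were left out by name only from the chromosome 10 set, so the sets compared are unlike. No test was made between stretches, since each was chosen on this contrast.

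**Figure D3:**
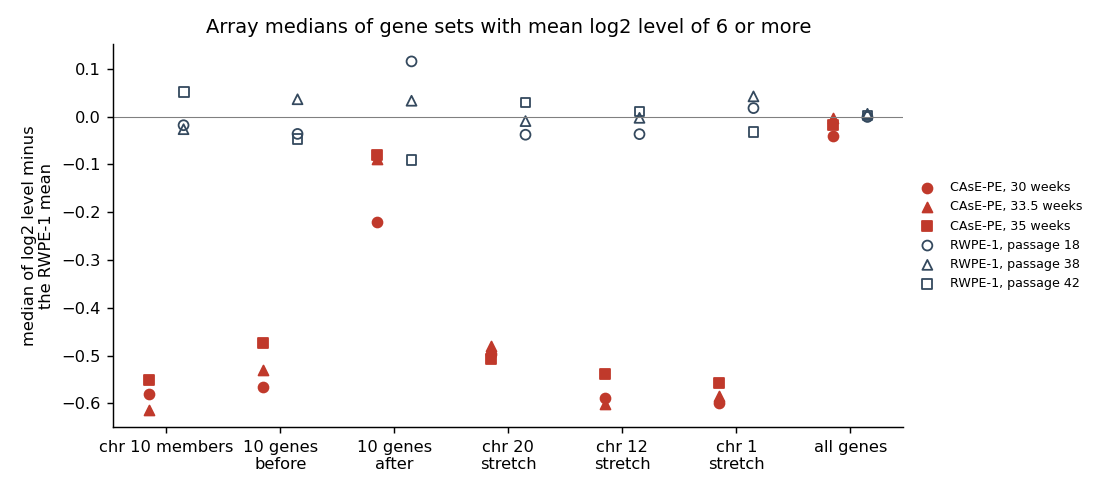
Median log2 level minus the RWPE-1 mean (vertical axis) on each array for the chromosome 10 members, their nearest neighbours, 3 other lowered stretches and all genes at the minimum. CAsE-PE arrays (filled) of the members lie at −0.61 to −0.55 and those of the 10 genes after the run at −0.22 to −0.08.

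Members were sorted by how far they stood from the common shift. Within 0.5 of the median were 29 members, at least 0.5 below it 6, and at least 0.5 above it 7. Over all genes at the level minimum, 7.29% lay at least 0.5 below their own median and 10.4% at least 0.5 above it, beside 14.3% and 16.7% of the members. Of the 29, 23 had all CAsE-PE arrays below all RWPE-1 arrays and 6 overlapped, so nearness to the median is not the same as separation of the groups. Set against each gene's own error, 15 members were within 2 SE of −0.57, 12 were further below and 15 further above, a count chosen after the values were seen. Without the passage 18 array 4 members in place of 7 stood at least 0.5 above the median or above 0.

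The 6 deepest members were MPP7, PLXDC2, FAM171A1, NRP1, PIP4K2A and LINC00839. MPP7 encodes a membrane scaffold that joins polarity proteins at cell junctions. Its log2 levels were 5.19, 5.30 and 5.55 in CAsE-PE at 30, 33.5 and 35 weeks, against 7.23, 7.33 and 8.10 in RWPE-1 at passages 18, 38 and 42. The groups were far apart, and the difference was −2.21 (SE 0.21), or 4.61-fold lower in CAsE-PE. Its CAsE-PE levels are below the minimum of 6, so the size of the difference has only the dim signal as its lower end.

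PLXDC2, a transmembrane protein gene with a plexin-like domain, had 5.69, 5.70 and 6.004 in CAsE-PE against 7.42, 7.86 and 8.36 in RWPE-1. No array of one line reached the range of the other, and the difference was −2.08 (SE 0.21). FAM171A1, a membrane protein gene linked to cell shape, had 6.23, 6.41 and 6.27 in CAsE-PE against 8.18, 8.27 and 7.87 in RWPE-1, a difference of −1.80 (SE 0.13). Both genes lay deeper than the common shift by more than 1 log2 unit, although the CAsE-PE mean of PLXDC2, 5.80, is also below the minimum of 6, which the gene reached through its RWPE-1 arrays.

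NRP1, a co-receptor for class 3 semaphorins and VEGF, had 7.59, 7.96 and 7.49 in CAsE-PE against 9.18, 9.30 and 9.09 in RWPE-1. The difference was −1.51 (SE 0.14), or 2.85-fold lower in CAsE-PE. PIP4K2A, a lipid kinase gene of phosphoinositide metabolism, had 6.49, 6.64 and 6.51 in CAsE-PE against 7.94, 7.81 and 7.70 in RWPE-1 (difference −1.27, SE 0.11). LINC00839, a long non-coding RNA gene and the last member in chromosome order, had 6.72, 6.90 and 6.80 in CAsE-PE against 8.03, 8.14 and 8.02 in RWPE-1 (difference −1.26, SE 0.10). The members just before it, HSD17B7P2 and LINC00999, were not lower, whereas the dim genes LOC441666 and CCNYL2, which lie between them and LINC00839, were below on all arrays.

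NEBL stood furthest above the common shift. It encodes nebulette, an actin-binding protein of the nebulin family. Its levels were 7.35, 7.07 and 7.47 in CAsE-PE against 6.38, 6.28 and 6.43 in RWPE-1, so every CAsE-PE array was above every RWPE-1 array. The difference was 0.94 (SE 0.12), 1.91-fold higher in CAsE-PE, which is 1.51 log2 units above the members' median. Its neighbours in the set were PLXDC2, among the deepest, and MIR1915HG (−0.17, SE 0.16), so the highest and the second-lowest value of the set stood side by side.

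HSD17B7P2, a transcribed pseudogene, had 8.44, 8.08 and 7.98 in CAsE-PE against 7.34, 7.49 and 7.66 in RWPE-1, a difference of 0.66 (SE 0.14). The arrays did not overlap. Its sequence resembles that of the gene HSD17B7, and the array cannot assign the signal between such copies, so this value is uncertain. The remaining genes at least 0.5 above the median had differences close to 0 and overlapping arrays.

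SVIL, which encodes the actin- and myosin-binding protein supervillin, had 7.85, 7.33 and 7.66 in CAsE-PE against 7.41, 7.40 and 7.48 in RWPE-1 (difference 0.18, SE 0.14). The 33.5-week array lay below all RWPE-1 arrays and the other CAsE-PE arrays above them, and the difference was 0.061 without the 30-week array and 0.32 without the 33.5-week array. PTF1A, a transcription factor gene of pancreas and cerebellum, had 7.36, 7.40 and 7.45 in CAsE-PE against 7.19, 7.40 and 7.44 in RWPE-1 (difference 0.06, SE 0.11), and LINC00999 had 7.56, 7.51 and 7.20 in CAsE-PE against 7.30, 7.39 and 7.56 in RWPE-1 (difference 0.01, SE 0.13). These genes showed no separation of the lines, and without a detection call a level near 7 cannot be told from background for them. SKIDA1 (−0.04, SE 0.11) and the secreted C1q-like gene C1QL3 (−0.06, SE 0.10) were near 0 as well. The sign of LINC00999 turned without the passage 18, passage 38, 30-week or 33.5-week array, that of PTF1A without passage 18 and that of SKIDA1 without passage 42.

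The 7 members that escaped the common shift all had levels under 8, 5 of them between 7 and 8. All 15 members with a mean level of 8 or more had all CAsE-PE arrays below all RWPE-1 arrays, with differences from −1.51 to −0.38 and a median of −0.72, where 17.3% of the 6075 genes at that level did. The 16 members with a level from 7 to 8 had a median of −0.58. Of these, 10 were below on all arrays, where 20.7% of all genes at that level were. The 11 members with a level from 6 to 7 had a median of −0.17 and ranged from −2.21 to 0.94. Of these 11, 4 were below on all arrays, beside 30.2% of all genes at that level, which had a median of −0.13. Among the 30 genes of the run below 6, the median was −0.23 and 26 were below 0 (86.7%), beside a median of −0.11 and 75.4% below 0 over the 5278 dim genes of the whole array. Over the 42 members Pearson's r between level and difference was −0.14 and Spearman's rank correlation −0.31, and those of gene length were −0.32 and −0.34, as descriptions over genes that share the same arrays. Near the minimum, MAP3K8 just inside had a level of 6.13 and a difference of −0.24 (SE 0.11), and THNSL1 just outside had a level of 5.97 and a difference of −0.58 (SE 0.15).

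**Figure D4:**
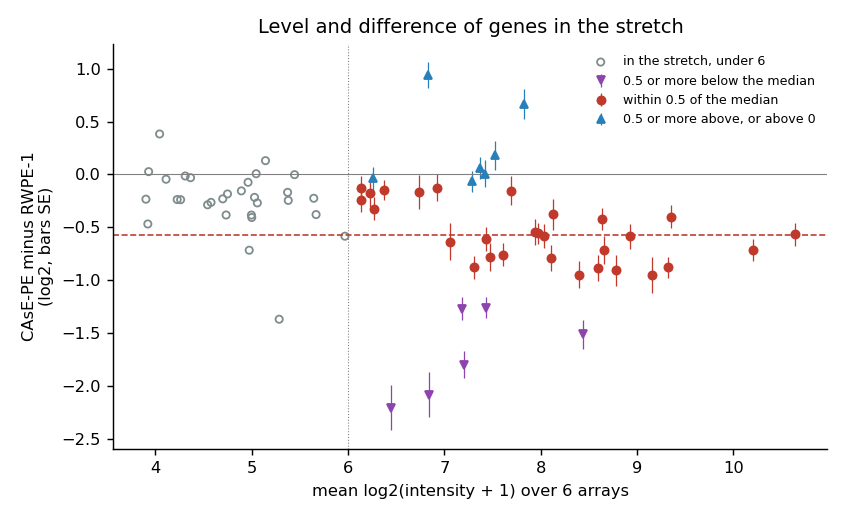
Difference CAsE-PE minus RWPE-1 (log2, vertical axis, bars show the SE of limma) against the mean log2 level over 6 arrays (horizontal axis) for genes of the run. All members at a level of 8 or more lie below 0, and those at least 0.5 above the median or above 0 (blue) have levels under 8; open grey points are genes under the minimum of 6, marked by the dotted line.

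Among cell cycle, kinase and ubiquitin genes all 7 members were below 0, from −1.27 in PIP4K2A to −0.24 in MAP3K8, a kinase gene of inflammatory signalling, with a median of −0.64. CUL2, the scaffold of the VHL ubiquitin ligase, had 8.02, 8.19 and 8.25 in CAsE-PE against 9.18, 9.11 and 8.81 in RWPE-1 (difference −0.88, SE 0.13). MASTL, the mitotic kinase Greatwall, had 8.57, 8.40 and 8.31 in CAsE-PE against 8.90, 8.82 and 8.82 in RWPE-1 (difference −0.42, SE 0.11). The deubiquitinase genes MINDY3 and OTUD1 differed by −0.78 and −0.64, and the cyclin gene CCNY by −0.56. MAP3K8 was the only member of this group whose arrays overlapped between the lines.

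The 6 genes of mitochondria, redox and metabolism had a median of −0.80. PDSS1, which makes the isoprenoid tail of coenzyme Q, had 8.36, 8.87 and 8.81 in CAsE-PE against 9.86, 9.69 and 9.35 in RWPE-1 (difference −0.95, SE 0.17). MSRB2, a mitochondrial methionine sulfoxide reductase gene, had 7.75, 8.10 and 7.93 in CAsE-PE against 8.82, 8.76 and 9.04 in RWPE-1 (difference −0.95, SE 0.13). YME1L1, a protease of the mitochondrial inner membrane, had 9.97, 9.81 and 9.77 in CAsE-PE against 10.56, 10.63 and 10.51 in RWPE-1 (difference −0.72, SE 0.10). NMT2, an N-myristoyltransferase gene, differed by −0.88 and ACBD5, a peroxisomal tether gene, by −0.61. PTER was the exception in this group, with overlapping arrays (7.83, 7.61 and 7.39 in CAsE-PE against 7.62, 7.80 and 7.87 in RWPE-1) and a difference of −0.15 (SE 0.13).

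Membrane traffic genes kept close together: the endosomal sorting gene STAM differed by −0.88 (SE 0.10), the small GTPase gene RAB18 by −0.72 (SE 0.13) and KIF5B by −0.56 (SE 0.11). KIF5B had 10.53, 10.28 and 10.27 in CAsE-PE against 10.95, 10.86 and 10.96 in RWPE-1. STAM had 8.92, 8.92 and 8.80 in CAsE-PE against 9.83, 9.69 and 9.75 in RWPE-1. All 3 genes were lower on every CAsE-PE array.

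The list of actin and GTPase genes held the highest member, NEBL, and the second-lowest, PLXDC2. PLXDC2 encodes a transmembrane protein with a plexin-like domain, so its place in this list is loose. Between them, the integrin-signalling gene RSU1 differed by −0.91 (SE 0.15), the WAVE complex gene ABI1 by −0.79 (SE 0.12), and the GTPase-activating protein genes ARHGAP12 and ARHGAP21 by −0.76 (SE 0.11) and −0.58 (SE 0.12). These 4 stood within 0.5 of the common shift, whereas the actin-binding genes NEBL and SVIL did not. Among receptor and junction genes, MPP7, FAM171A1 and NRP1 were deeper, and KIAA1217 (−0.38, SE 0.15), JCAD (−0.32, SE 0.11) and the connexin gene GJD4 (−0.13, SE 0.13) were shallower. GJD4 had 7.02, 6.80 and 6.78 in CAsE-PE against 6.93, 6.83 and 7.22 in RWPE-1, which overlap.

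Chromatin and transcription genes were MLLT10 (−0.59, SE 0.11), a partner of the H3K79 methyltransferase DOT1L, WAC (−0.40, SE 0.11), an adaptor of histone H2B ubiquitination, MKX (−0.18, SE 0.13) and PTF1A. MLLT10 had 7.90, 7.59 and 7.73 in CAsE-PE against 8.33, 8.23 and 8.41 in RWPE-1, whereas the homeobox gene MKX had overlapping arrays. ANKRD26, a centriole gene and the only member of the cilia list at the level minimum, differed by −0.13 (SE 0.11), again with overlap.

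RPP38, a protein subunit gene of RNase P, and RPP38-DT, a divergent non-coding transcript, are read from opposite strands, and their start regions share 135 bases. RPP38 had 7.57, 7.77 and 7.65 in CAsE-PE against 8.39, 8.24 and 7.996 in RWPE-1 (difference −0.55, SE 0.12). RPP38-DT had 6.31, 6.35 and 6.25 in CAsE-PE against 6.41, 6.43 and 6.499 in RWPE-1 (difference −0.15, SE 0.09). Both were lower on all CAsE-PE arrays, RPP38 at the size of the common shift and RPP38-DT, with the dimmer signal, by less.

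Genes left out of the set by name moved in both directions. Of 11 at the level minimum, 6 were below on all arrays and 3 above, beside 2845 and 2716 of the 13139 genes at that minimum. VIM, which encodes vimentin, had 7.94, 7.57 and 6.85 in CAsE-PE against 10.70, 10.35 and 10.15 in RWPE-1 (difference −2.95, SE 0.25), deeper than any member, and ITGB1, the integrin beta 1 gene, differed by −0.84 (SE 0.11).

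Close relatives and complex partners of the members, encoded outside the run, were tested in the limma fit over all genes. For 23 members 88 such genes were measured: 12 rose, 11 fell and 65 did not pass an adjusted p of 0.05. That is 13.6% and 12.5% of them, beside 9.04% of all genes higher and 8.71% lower. Most partners reach the level minimum, and of the 13139 genes that do, 1541 were called higher and 1275 lower. No excess is read from these shares. The 23 members had a median difference of −0.78 and the partners one of 0.01, a gap that the choice of a lowered run largely fixes. Without the passage 18, 38 or 42 array 4, 2 or 5 partners rose, and without the 33.5-week or 35-week array 5 or 3 did.

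Of 7 measured partners of NRP1, 2 fell, 1 rose and the others did not pass the threshold. NRP2, its sister receptor gene on chromosome 2, averaged 6.52 ± 0.06 in CAsE-PE and 7.78 ± 0.06 in RWPE-1 (SD, n = 3 each) and fell by 1.26 (SE 0.10, limma adjusted p = 5.39e-05). The ligand gene SEMA3A averaged 7.29 ± 0.35 in CAsE-PE and 9.01 ± 0.28 in RWPE-1 and fell by 1.72 (SE 0.19, limma adjusted p = 0.000450). VEGFA, the growth factor ligand gene, averaged 10.52 ± 0.18 in CAsE-PE and 9.29 ± 0.68 in RWPE-1 and rose by 1.23 (SE 0.28, limma adjusted p = 0.0169), with passage 42 at 10.07 above the other untreated arrays. FAM171B, a relative of FAM171A1 on chromosome 2, averaged 5.58 ± 0.17 in CAsE-PE and 7.86 ± 0.17 in RWPE-1. It fell by 2.28 (SE 0.13, limma adjusted p = 1.03e-05). The other measured relative, FAM171A2 on chromosome 17, had overlapping arrays and did not pass the threshold (difference 0.11, SE 0.15).

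Relatives of members near the common shift changed in both directions. NMT1, the sister gene of NMT2, rose by 0.41 (SE 0.12, limma adjusted p = 0.0468), and ACBD4, the relative of ACBD5, rose by 0.51 (SE 0.14, limma adjusted p = 0.0313). HGS, which forms the endosomal sorting complex with STAM, rose by 0.36 (SE 0.11, limma adjusted p = 0.0476). Of 10 coenzyme Q genes measured beside PDSS1, COQ4 and COQ6 rose by 0.54 and 0.45 (limma adjusted p = 0.0239 and 0.0160). The others did not pass the threshold. Of the methionine sulfoxide reductases, MSRA and MSRB3 fell by 0.68 and 0.62 (limma adjusted p = 0.00384 and 0.00591) and MSRB1 rose by 0.55 (limma adjusted p = 0.0393). Both called partners of RAB18, RAB3GAP2 (−0.75) and TBC1D20 (−0.41), lie in other lowered stretches, on chromosomes 1 and 20, and RBX1 (0.73), the RING partner of CUL2, lies in a raised stretch of chromosome 22.

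**Figure D5:**
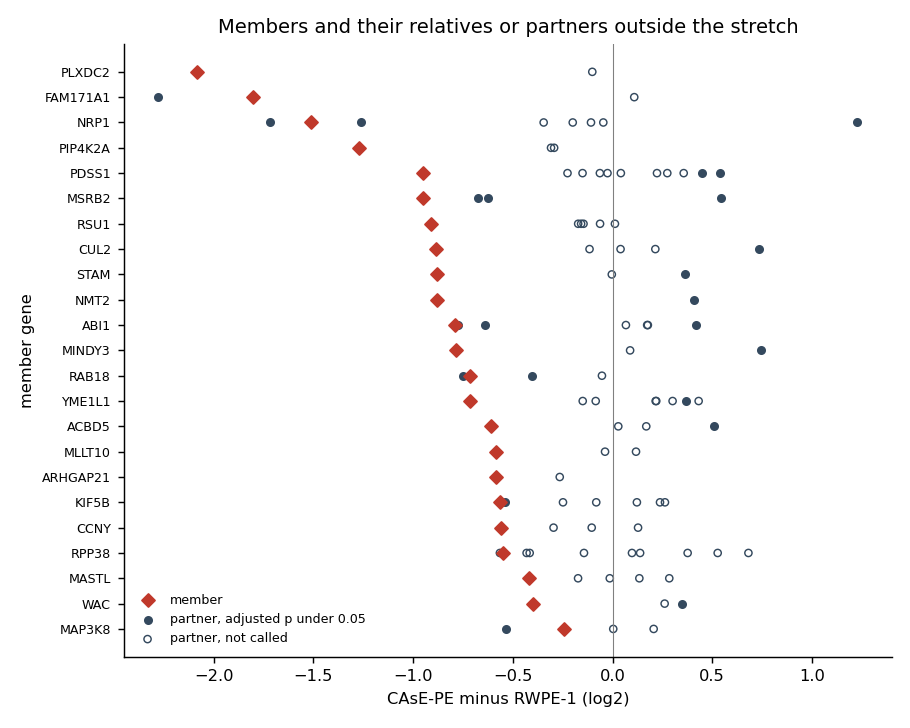
Differences CAsE-PE minus RWPE-1 (log2, horizontal axis) of 23 members (red diamonds, one row each) and of their relatives or partners encoded outside the run (circles, filled where limma's adjusted p was under 0.05). The members run from −2.08 to −0.24, and the 88 partners from −2.28 to 1.23 around a median of 0.01.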

How the data were processed

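The values the authors deposited are intensities, taken as linear because they span 2.25 to 16617. How these were background-corrected, summarised and normalised was not stated by any label or header. Groups follow the phenotype label. The platform annotation gave 1 symbol for 19460 of 33252 features, several for 1754, and did not list 12038. Of the 19460, 19429 matched RefSeq GRCh38.p14 by Entrez identifier, and 0 symbols changed. Each of 18417 genes was represented by its brightest feature. RefSeq starts set the order of genes and the limits of the run, and start-region sequences are RefSeq's.

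Values were log2(intensity + 1), and at the levels of this run the added 1 understates differences of dim genes only slightly. limma 3.58.1 in R 4.3.3 compared the lines over all genes with a two-sided moderated test (Benjamini-Hochberg adjusted, threshold 0.05, residual degrees of freedom 4). A second model had slopes on passage for RWPE-1 and on exposure weeks for CAsE-PE (residual degrees of freedom 2). Python 3.11.15, numpy 2.4.6 and pandas 2.3.3 were used for the rest, and the fits were tested on simulated data. Precision is limited by having 3 arrays of each line.

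The members, role lists and partner lists were chosen with earlier results of these data known. Named members were the 6 lowest and 6 highest differences and the first and last by position. Those at the level minimum and the extremes of each role list were also named. Named partners were called ones and relatives of named members, not taken strictly by size. Among called partners that rose, MINDY2 (0.75), BRK1 (0.42) and LONP1 (0.37) were left undescribed although smaller ones were described. The same holds for CYFIP2 (−0.78), WASF3 (−0.64), KIF5A (−0.54) and NFKB1 (−0.53) among those that fell. Other members were named as further examples of their role after their values were seen. Alternatives tried were a pseudocount of 16, median-centred arrays, quantile normalisation, level minima of 5 and 7, the median over a gene's features, other variance models and each array left out.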

Additional observations from a re-analysis of the deposited data

How the results depend on the processing

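The direction of the shift held under every alternative run. The members' median difference of −0.57 was −0.42 with a level minimum of 5 and −0.64 with a minimum of 7, and −0.61 to −0.52 with each array left out in turn. Members at least 0.5 above the median, or above 0, numbered 12 after quantile normalisation and 4 to 9 with an array left out, against 7 as reported. Members called lower ranged from 22 to 26 with an array left out. Members called higher numbered 1 with a minimum of 7 and 1 to 2 with an array left out. Partners called higher numbered 6 after quantile normalisation and 2 to 9 with an array left out, and those called lower 18 with array weights and 8 to 13 with an array left out. Over all genes 1604 were called lower and 1665 higher, array weights gave 2746 lower and 2596 higher, and leaving out an array 939 to 1519 lower and 949 to 1665 higher. SKIDA1 turned sign after quantile normalisation (0.081). With an array left out SKIDA1 ranged from −0.11 to 0.034, LINC00999 from −0.064 to 0.12 and PTF1A from −0.013 to 0.11. The causes were not tested. No member passed the threshold for a passage or week trend under any of the 4 alternatives, and trends were not refitted with an array left out. No paired analysis was possible because the labels give the groups no shared replicate numbers. Without detection calls, signal over background limits what can be said of dim genes.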

Other observations

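Features with several gene symbols were left out of the set, and 3 of them have all their symbols inside the run. All 3 were at or above a level of 6, with differences of −0.74 to −0.41 and a median of −0.42. Each had all CAsE-PE arrays below all RWPE-1 arrays, where 21.7% of all genes at that level did. The features lie in the run that was chosen on this contrast, so nothing is read from this count. They are not named here because the annotation gives each more than 1 symbol.

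Below the level minimum, PRTFDC1, a relative of the purine salvage gene HPRT1, had the deepest difference of the 30 dim genes, with levels of 4.36, 4.80 and 4.64 in CAsE-PE against 6.26, 6.13 and 5.52 in RWPE-1 (−1.37, SE 0.20). LYZL1, a lysozyme-like gene, had the highest, with 4.14, 4.36 and 4.20 in CAsE-PE against 3.65, 4.17 and 3.73 in RWPE-1 (0.38, SE 0.15). Both genes were chosen after their values were seen.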
